A study of Mus musculus with 18 samples.

Results

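Among the genes counted in C2C12 cells after enzymatic treatment, 164 pseudogenes were expressed, out of 3633 pseudogenes and 25957 genes in the count matrix. A row was taken as an expressed pseudogene when its deposited biotype contained the word pseudogene and it reached at least 5 CPM (counts per 1000000 counts of the library) in at least 3 of the 18 libraries. Pseudogenes are gene-like sequences, mostly copies of genes, that no longer encode a full protein. Processed pseudogenes arise when an mRNA is reverse transcribed and inserted back into the genome without introns, and the abundant mRNAs of ribosomal proteins have left many such copies in mammals. Other pseudogenes are stretches of mitochondrial DNA that have moved into the nuclear chromosomes. A short read from such a copy can carry the same bases as a read from the functional gene, here called its parent.

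The study treated C2C12, an established mouse myoblast line, with proteases used to detach cells, and measured RNA by BRB-seq, in which each sample's cDNA is barcoded before pooling. There were 6 groups of 3 libraries, numbered in the labels as lots 1 to 3. All cells grew with 20% fetal bovine serum. Cells of 3 groups were rinsed with PBS and then met 200 µL of 0.25% trypsin at 37 °C, for 30 s in the first group, 3 min in the next and 30 min in the last. In the low trypsin group the enzyme was also 200 µL of 0.25% trypsin, but it was taken off immediately and the cells stayed at 37 °C for 3 min. In the cold-active protease group, cells were rinsed, given 200 µL of the enzyme and shaken at 4 °C for 5 min. Control cells met no protease and were lysed and scraped in the plate. The labels do not say whether the cells of each lot were grown separately, so every p-value below is about scatter among these libraries, and that scatter may be technical. Library totals were 1490869 to 2480690 counts, at which 3 counts came to between 1.21 and 2.01 CPM. The myoblast genes Myod1 and Des lay at 44.2 to 69.1 CPM and 785 to 958 CPM over the 18 libraries, while Ptprc of macrophages and Pecam1 of endothelial cells reached at most 1.12 and 1.04 CPM. Msc, from the same list of myoblast genes, reached at most 2.71 CPM. Of the fibroblast or mesenchymal genes, Col1a2 and Col3a1 lay at 1159 to 1633 CPM and 1004 to 1171 CPM. Col1a1, Dcn, Lum and Pdgfra from that list reached at most 21.1, 10.1, 0.946 and 2.25 CPM. In bulk RNA, a change in the number of cells of a kind and a change in RNA per cell cannot be told apart.

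The pseudogenes were mostly copies of translation genes. By biotype, 120 were processed, 23 were processed and annotated as transcribed, 17 were unprocessed with or without that annotation, and the remainder were 2 polymorphic, 1 unitary and 1 without a class. A parent was found by sequence for 155 of them. Of the 164, 108 had a cytosolic ribosomal protein gene or ribosome-bound factor as parent, 10 derived from the mitochondrial genome, 5 from ubiquitin and proteasome genes, 3 from respiratory chain genes of the nucleus and 2 from Gapdh of glycolysis. The parents Rpl32 and Rps2 had 5 expressed copies each. Identity to the parent over the aligned bases had a median of 98.2%, and 16 copies were identical. Cut into 45-base windows, the length of the cDNA read, 22 pseudogenes had no window that set them apart from every other annotated transcript, 77 had 50% or more of their windows free of any exact match, and 15 had all of them free. The match of reads elsewhere in the genome was not examined. Of the windows that pseudogene and parent shared exactly, a median of 31.4% ran across an exon junction of the parent. On the genome, 26 pseudogenes lay within another gene on the same strand and 38 overlapped a gene on the other strand. The sources used here do not give the strand setting of the counting, so reads of these overlapping genes cannot be told apart.

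The choice by level kept members of very different steadiness. Counts were present in all 18 libraries for 145 of the 164, 69 reached 5 CPM in every library, and 109 had a mean of at least 5 CPM. Just inside the threshold, D630033A02Rik, Gm10012 and Gm15710 each had a third-highest value of 5.05 CPM. Just outside it were Ptprv at 4.98 CPM and Gm8822 and 1810014B01Rik at 4.81 CPM. A pseudogene that passed only through libraries of a single group was bound to differ between groups. This was the case for 9 of them, 6 through low trypsin and 3 through 30 s trypsin. The values of these 9 are given below as descriptions. Others, such as Gm5963 and Rps23-ps2, reached 5 CPM in libraries of 30 s and low trypsin together and in no other group. The rule also favoured their difference from control, and their number was not counted.

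The sequences below show how little separates some copies from their parent, and how much separates others, for 4 families with large differences between groups. Each line gives 60 bases of coding sequence from 5′ to 3′ (GENCODE M21 transcripts, GRCm38), capitals mark bases that differ from the parent, and the stretch was chosen as the one with the most differences that all listed copies cover without a gap. For Rpl10a, a protein of the large ribosomal subunit, bases 134 to 193 of the coding sequence are shown. The copies lie at chr1:64994412-64994471 on the minus strand, chr13:8940785-8940844 on the minus strand and chr15:96923215-96923274 on the minus strand. Rpl10a-ps1 was identical here, while Rpl10a-ps2 and Rpl10a-ps3 differed at 15 and 12 of the 60 bases.
Rpl10a: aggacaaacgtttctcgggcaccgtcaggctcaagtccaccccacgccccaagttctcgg
Rpl10a-ps1: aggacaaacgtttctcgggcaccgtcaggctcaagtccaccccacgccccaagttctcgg
Rpl10a-ps2: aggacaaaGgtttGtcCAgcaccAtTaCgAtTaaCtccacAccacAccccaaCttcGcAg
Rpl10a-ps3: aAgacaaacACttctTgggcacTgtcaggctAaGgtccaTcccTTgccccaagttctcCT

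For Rps12, a protein of the small subunit, bases 123 to 182 are shown, with Rps12-ps2 at chr14:61467233-61467292 on the minus strand, Rps12-ps4 at chr7:30484964-30485023 on the minus strand, Rps12-ps9 at chr8:123206697-123206756 on the plus strand and Rps12-ps10 at chr2:122220067-122220126 on the plus strand. Rps12-ps2 carried 3 differences, G137A, C154T and G182A, with positions counted from the first base of the start codon.
Rps12: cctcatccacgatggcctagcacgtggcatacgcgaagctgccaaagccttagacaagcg
Rps12-ps2: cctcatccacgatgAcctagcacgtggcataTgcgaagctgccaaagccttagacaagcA
Rps12-ps4: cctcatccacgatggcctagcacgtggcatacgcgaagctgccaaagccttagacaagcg
Rps12-ps9: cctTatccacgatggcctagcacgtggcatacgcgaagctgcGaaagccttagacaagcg
Rps12-ps10: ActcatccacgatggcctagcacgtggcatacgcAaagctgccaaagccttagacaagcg

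For Rpsa, a small-subunit protein also known as a laminin receptor, bases 743 to 802 are shown, with Rpsa-ps2 at chr10:128776452-128776511 on the minus strand and Rpsa-ps9 at chr2:28477907-28477966 on the plus strand. Rpsa-ps2 carried G743A and G792A.
Rpsa: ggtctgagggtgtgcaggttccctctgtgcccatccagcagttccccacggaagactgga
Rpsa-ps2: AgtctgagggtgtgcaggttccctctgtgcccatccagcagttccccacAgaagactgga
Rpsa-ps9: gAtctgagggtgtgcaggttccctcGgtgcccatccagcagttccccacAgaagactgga

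For mt-Co1, subunit 1 of cytochrome c oxidase encoded in mitochondrial DNA, bases 1458 to 1517 are shown, with the nuclear copies Gm13340 at chr2:22588131-22588190 on the minus strand and Gm29216 at chr1:24615734-24615793 on the minus strand. Gm13340 carried G1458A, T1464C and T1506C, and Gm29216 was identical over the stretch.
mt-Co1: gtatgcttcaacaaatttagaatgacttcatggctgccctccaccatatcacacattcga
Gm13340: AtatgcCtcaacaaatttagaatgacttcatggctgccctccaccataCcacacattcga
Gm29216: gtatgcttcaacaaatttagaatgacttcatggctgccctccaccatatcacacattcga

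Together the 164 pseudogenes held under 1% of the counts of every library, and this share was largest after low trypsin. It was 0.857%, 0.878% and 0.868% in the low trypsin libraries and 0.699%, 0.685% and 0.757% after 30 s trypsin, against 0.566%, 0.487% and 0.499% in control. The 3 min libraries had 0.507%, 0.542% and 0.507%, the 30 min libraries 0.558%, 0.630% and 0.593%, and the cold-active protease libraries averaged 0.587 ± 0.0116% (SD, n = 3). The low trypsin and 30 s libraries thus lay above every other library, the 3 min libraries lay within the range of control, and the cold-active protease libraries lay above control by a narrow margin. No p is given, since the members were chosen by level. Copies of mitochondrial genes made up much of the difference, with a summed 3268 ± 315 CPM after low trypsin and 2269 ± 449 CPM after 30 s, against 835 ± 227 CPM in control (SD, n = 3 each). Copies of ribosomal protein genes summed to 4654 ± 268 CPM after low trypsin and 4079 ± 123 CPM after 30 s, against 3696 ± 160 CPM in control (SD, n = 3 each).

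**Figure D1:**
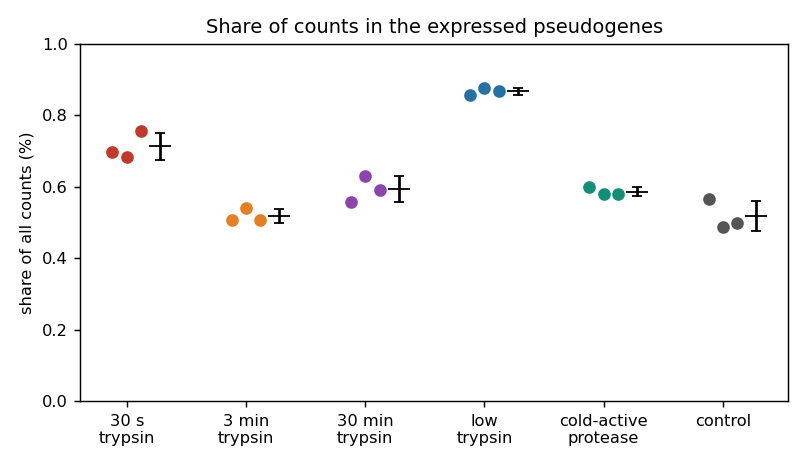
Share of all counts of a library held by the 164 expressed pseudogenes, in percent, for 6 groups of 3 libraries; points are libraries and the bar beside them is the mean with its SD. The low trypsin libraries sit at 0.857% to 0.878% and the control libraries at 0.487% to 0.566%.

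By gene, many pseudogenes were higher after 30 s trypsin and low trypsin, and few differed after cold-active protease. Of 159 pseudogenes with enough counts for the test, 49 were higher and 10 lower after 30 s trypsin than in control at an edgeR adjusted p under 0.05, which is 37.1% of them beside 6.94% of all 10075 genes tested (3.24% higher and 3.7% lower). After low trypsin 60 were higher and 5 lower, 40.9% beside a background of 5.19% (3.3% higher and 1.9% lower). After 30 min trypsin 22 were higher and 6 lower, 17.6% beside 4.68% (2.07% higher and 2.61% lower). After 3 min trypsin 9 were higher and 11 lower, 12.6% beside 3.96% (1.01% higher and 2.95% lower), and these 20 calls fell to 10 without replicate 1 of 3 min and to 13 without its replicate 3 or replicate 3 of control. After cold-active protease 2 were higher and 3 lower, 3.14% beside 0.665% (0.199% higher and 0.467% lower), and these 5 calls became 8 without replicate 1 of control and 3 without replicate 2 or 3 of control or replicate 1 of the treatment. The median log2 fold change of the 159 was 0.83 after low trypsin, 0.48 after 30 s, 0.21 after 30 min, −0.10 after 3 min and 0.01 after cold-active protease, while that of all genes tested lay within 0.01 of 0 in each comparison. Setting the members at 0 in a whole group to their bound left these medians as they were. These 5 comparisons share the same 3 control libraries. The 159 include the 9 pseudogenes that passed the level rule through a single group, 3 through 30 s trypsin and 6 through low trypsin. They also include others, such as Gm5963 and Rps23-ps2, that reached 5 CPM only in libraries of those 2 groups together. Part of the calls in those 2 groups and over the 6 groups was therefore set by the choice of members. Counts over subsets and pairs below may include some of these members as well. The direction given is that of the pseudogenes as counted alone. When each was summed with its parent and the parent's other copies, 20 sums were higher and 89 lower after 30 s, and 19 were higher and 41 lower after low trypsin. The pseudogene held a median of 2.07% of the counts of a pair. Most sums therefore follow the parent and cannot test the pseudogene. Of 73 tested pseudogenes with 50% or more of their windows free of an exact match, 19 were higher and 7 lower after 30 s, and 21 were higher and 3 lower after low trypsin.

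A mean of at least 5 CPM over all 18 libraries was met by 109 pseudogenes, though a single high group can also carry a member such as Rpsa-ps2 over that line. Of the 109, 45 were higher and 4 lower after low trypsin, 40 higher and 10 lower after 30 s, 21 higher and 6 lower after 30 min, 9 higher and 10 lower after 3 min, and 2 higher and 3 lower after cold-active protease. A difference among the 6 groups was called for 94 of the 159, or 59.1% beside 11.5% of all genes tested. In the comparisons with control, 71 of the 159 were called in none, and 4 were called in opposite directions in different comparisons, which were Gm14633, Gm28438, Gm8292 and Gm9351. These 4 were picked out after the values were seen. Gm14633 had met the level rule through low trypsin alone, so its values after low trypsin are a description. By group mean, 71 of the 164 pseudogenes were highest after low trypsin, 38 after 30 s, 18 after 30 min, 8 after 3 min, 9 after cold-active protease and 20 in control. The same tally was not made over all genes, so these numbers have no background beside them. They include the 9 pseudogenes that passed the level rule through low trypsin or 30 s trypsin alone, and others that passed through these groups together.

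**Figure D2:**
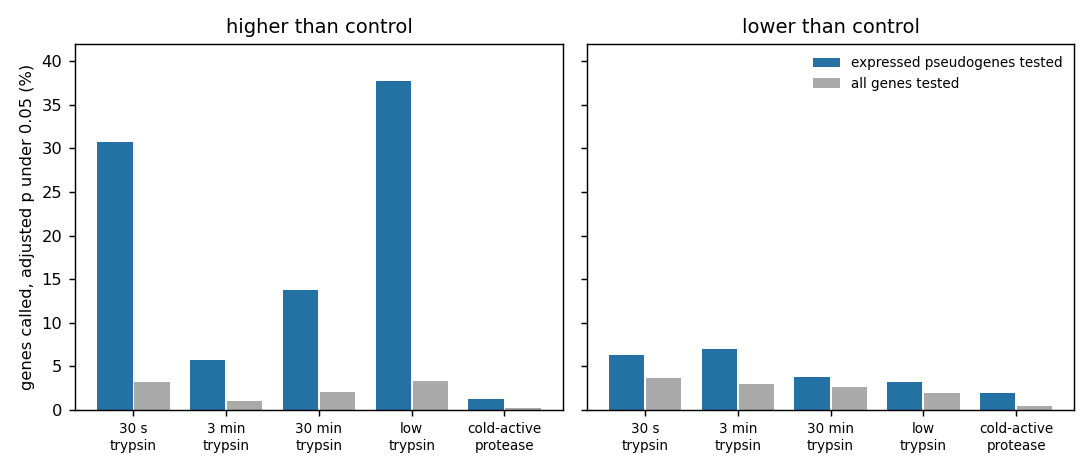
Percentage of the 159 tested pseudogenes (blue) and of all 10075 tested genes (grey) called higher (left) or lower (right) than control at an edgeR adjusted p under 0.05, for 5 treatments. Called-higher bars of the pseudogenes are tallest after low trypsin at 37.7% and 30 s trypsin at 30.8%, against 3.3% and 3.24% of all genes. The 159 include the 9 that passed the level rule through 1 of these 2 groups alone, and others that passed through the 2 together.

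Copies of ribosomal protein genes moved mainly upward after brief trypsin. Of 107 tested, 47 were higher and 3 lower after low trypsin, 30 higher and 8 lower after 30 s, 15 higher and 2 lower after 30 min, 4 higher and 8 lower after 3 min, and 1 higher after cold-active protease. The functional parents did not share this. Of 60 tested parents of these copies, 4 were higher and 29 lower after low trypsin, and 4 were higher and 47 lower after 30 s. Since many copies cannot be separated from their parent by a 45-base read, how reads with several matches were counted bears on both, and the sources used here do not say how.

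Rps3a3, a copy of the small-subunit gene Rps3a1 on chromosome 13 that lies within the gene Pde4d but outside its exons, held more counts than any other pseudogene. It had 1074, 985 and 1027 CPM after 30 s trypsin and 1143, 1018 and 999 CPM after low trypsin, against 1246, 1239 and 1208 CPM in control. It fell by 0.31 ± 0.05 on the log2 scale after 30 s (SE, edgeR adjusted p = 1.4e-05) and by 0.24 ± 0.05 after low trypsin (edgeR adjusted p = 0.0019), with no overlap of libraries. The parent Rps3a1 had far fewer counts, so that Rps3a3 held 87.6% of the counts of the pair.

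Rpl10a-ps1, which is identical to Rpl10a over its aligned bases, rose while its parent fell. It had 226, 222 and 197 CPM after 30 s trypsin, 219, 197 and 187 CPM after low trypsin and 162, 199 and 176 CPM after 30 min, against 131, 105 and 87.0 CPM in control. The log2 fold change of Rpl10a-ps1 was 0.97 ± 0.10 after 30 s (SE, edgeR adjusted p = 2.5e-11), 0.91 ± 0.10 after low trypsin and 0.73 ± 0.10 after 30 min. Rpl10a had 146, 135 and 146 CPM after 30 s, against 193, 212 and 219 CPM in control, a log2 fold change of −0.61 ± 0.08 (SE, edgeR adjusted p = 1.5e-07). Libraries of the groups did not overlap in either gene.

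Rpl10a-ps2, whose bases differ most from the parent among these copies, had its counts almost wholly in the 30 s libraries. It had 24.1, 19.8 and 21.2 CPM there, no more than 1.39 CPM in any library of the other treatments, and 0, 0.473 and 0 CPM in control. As it passed the level rule through the 30 s libraries alone, this is a description. The 132 counts after 30 s against 1 in control are a ratio of 128, with an exact 95% counting interval of 22.6 to 5097. With 82% of its windows free of an exact match elsewhere in the annotated transcripts, it belonged to the well separated copies. Rpl10a-ps3, nearly as divergent, had 3.06, 5.73 and 5.43 CPM after 30 s and 5.38, 5.82 and 5.10 CPM after low trypsin, against 2.53, 1.89 and 2.30 CPM in control, and was called in neither comparison.

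Several copies were well counted after low trypsin alone. Rpsa-ps2 had 55.7, 39.7 and 58.4 CPM after low trypsin, against 1.26, 1.42 and 0.921 CPM in control, and at most 3.64 CPM in any other library. Gm7429, a copy of the large-subunit gene Rpl30, had 10.8, 13.8 and 10.7 CPM after low trypsin, against 0.632, 0.946 and 0.921 CPM in control. Gm10154, a copy of Rpl34, had 10.8, 20.1 and 6.49 CPM after low trypsin, against 0, 0 and 0.921 CPM in control. Each of these low trypsin values lay above all 15 other libraries, and each pseudogene had met the level rule through low trypsin alone. The 74 counts of Gm10154 after low trypsin against 2 in control are a ratio of 35.6, with an exact 95% counting interval of 9.53 to 300.

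The sums of these families were not called, but they consist mostly of counts of the parent and so cannot test the copies. Rpsa itself had 751, 718 and 731 CPM after low trypsin, against 875, 873 and 886 CPM in control. With Rpsa-ps2 added to Rpsa and its other copies, the log2 fold change after low trypsin was −0.16 (edgeR adjusted p = 0.0523), against 5.34 ± 0.36 for Rpsa-ps2 alone. For Gm10154 the family sum changed by −0.16 (edgeR adjusted p = 0.143) and for Gm7429 by 0.13 (edgeR adjusted p = 0.146).

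Rps12-ps2 was highest after 30 min trypsin. It had 42.9, 35.0 and 35.4 CPM after 30 min trypsin and 8.75, 7.81 and 8.69 CPM after 30 s, against 1.90, 2.37 and 2.76 CPM in control, and 0.601, 1.69 and 0 CPM after 3 min. The 30 min rise was 3.92 ± 0.34 on the log2 scale (SE, edgeR adjusted p = 7.3e-13), with the libraries far apart. Rps12-ps9 was highest after low trypsin, with 94.4, 85.2 and 71.8 CPM, against 20.2, 17.5 and 12.4 CPM in control, a log2 fold change of 2.33 ± 0.17 (SE, edgeR adjusted p = 3.5e-15). Rps12 lay at 2450, 2417 and 2621 CPM after 30 min, against 2608, 2564 and 2491 CPM in control, which overlap, and the sum of the family changed by −0.02 after 30 min (edgeR adjusted p = 0.891).

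**Figure D3:**
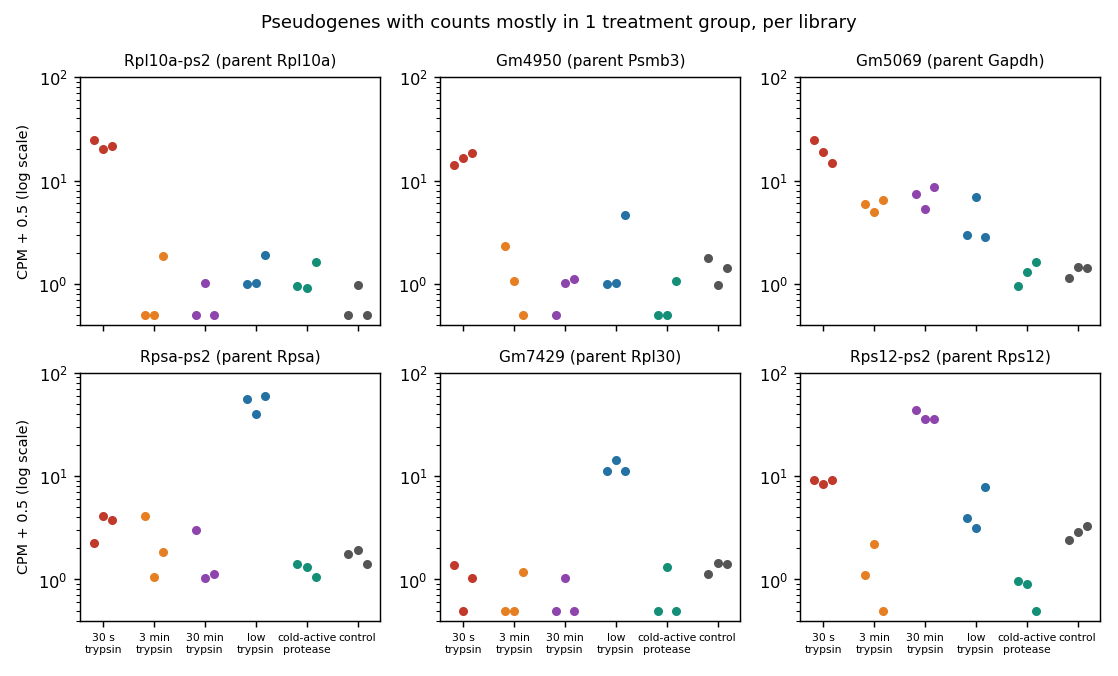
CPM plus 0.5 on a log scale in each of 18 libraries (3 points a group) for 6 pseudogenes named in the text. Rpl10a-ps2, Gm4950 and Gm5069 are highest after 30 s trypsin, Rpsa-ps2 and Gm7429 after low trypsin, and Rps12-ps2 after 30 min trypsin at 35.0 to 42.9 CPM against 1.90 to 2.76 CPM in control.

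Copies of 1 parent could also part company after 30 s trypsin. The parent Rps23, a protein near the decoding centre of the ribosome, fell to 194, 173 and 178 CPM after 30 s, against 351, 341 and 343 CPM in control. Its copy Rps23-ps2 had 5.25, 3.12 and 5.43 CPM after 30 s and 6.36, 3.18 and 5.56 CPM after low trypsin, against 0 CPM in all 3 control libraries. Against a floor of 3 counts over the control group, this is at least 9.06-fold higher after 30 s and at least 9.95-fold higher after low trypsin. Its copy Gm14633 had 0.438, 0 and 0.543 CPM after 30 s and none after 3 min, while it had 10.3, 6.88 and 5.56 CPM after low trypsin, against 3.16, 2.37 and 0.921 CPM in control. At 3 min this is at least 3.36-fold lower than in control by the same floor. Gm14633 met the level rule through low trypsin alone, and Rps23-ps2 through 30 s and low trypsin libraries alone, so their values there are descriptions. Both had no counts after 3 min, and both were higher after low trypsin than in control. Rps23-ps2 and Gm14633 were picked out after their values were seen, from 4 expressed copies of Rps23.

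Some ribosomal copies fell alongside a falling parent. Rpl32 of the large subunit had 548, 579 and 534 CPM after 30 s trypsin and 585, 563 and 573 CPM after 3 min, against 1098, 975 and 1028 CPM in control. Its copy Rpl32l had 23.6, 19.8 and 23.3 CPM after 30 s and 20.4, 21.4 and 24.8 CPM after 3 min, against 40.4, 35.0 and 34.1 CPM in control. Rpl32l fell by 0.75 ± 0.17 after 30 s (SE, edgeR adjusted p = 0.0013) and by 0.77 ± 0.18 after 3 min (edgeR adjusted p = 0.0026). The copy Gm4987 fell with them, by 0.39 ± 0.08 and 0.56 ± 0.08 in the same comparisons. The copy Gm9351 fell at 3 min, with 157, 156 and 171 CPM against 238, 206 and 212 CPM in control, but was higher at the other treatments except 30 s, with 322, 345 and 267 CPM after low trypsin and 310, 273 and 278 CPM after cold-active protease. Gm9351 had a log2 fold change of −0.49 ± 0.09 after 3 min, 0.50 ± 0.08 after low trypsin and 0.39 ± 0.08 after cold-active protease (SE, edgeR adjusted p = 0.00014, 1.6e-05 and 0.0062).

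Other copies of ribosomal genes fell after brief trypsin. Gm8130, a copy of Rps3, had 21, 18.2 and 22.3 CPM after 30 s and 12.4, 19.1 and 19.2 CPM after 30 min, against 44.2, 36.4 and 39.6 CPM in control. It fell by 1.01 ± 0.17 after 30 s, by 1.25 ± 0.19 after 30 min and by 0.88 ± 0.17 after low trypsin (SE, edgeR adjusted p = 2.1e-05, 2.1e-06 and 0.00031). Gm8420, a copy of Rpl15, fell by 0.67 ± 0.09 after 30 s, with 97.1, 88.0 and 106 CPM against 147, 152 and 147 CPM in control. Gm8292, a copy of Rps24, fell by 0.63 ± 0.12 after 3 min, when Rps24 fell by 0.75 ± 0.05, and it rose by 0.37 ± 0.11 after 30 min (SE, edgeR adjusted p = 0.04), when Rps24 was not called. Gm8292 was picked out after its values were seen.

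Further ribosomal copies rose after trypsin. Gm10275, identical to Rpl12, had 21, 16.9 and 18.8 CPM after 3 min and 33.3, 28.6 and 25.9 CPM after low trypsin, against 9.48, 10.4 and 9.67 CPM in control. Rps2-ps10, a copy of Rps2 with no window of its own, had 99.8, 94.7 and 75.5 CPM after 30 s and 98.3, 111 and 92.7 CPM after low trypsin, against 33.5, 27.4 and 27.2 CPM in control. Its log2 fold change was 1.58 ± 0.14 and 1.77 ± 0.13 in these comparisons (SE, edgeR adjusted p = 1.3e-13 and 3.5e-15). Gm7638, a more distant copy of Rps2 at 88.1% identity, rose by 0.45 ± 0.08 after 30 s and by 0.34 ± 0.08 after both low trypsin and 30 min. Gm5963, a copy of Rps21, had 10.5, 13.0 and 9.23 CPM after 30 s and 9.78, 12.7 and 10.2 CPM after low trypsin, against 2.53, 1.89 and 2.30 CPM in control. It met the level rule through 30 s and low trypsin libraries alone, so this is a description. Gm49138, a copy of the ribosome-bound scaffold gene Rack1, had 10.3, 16.4 and 22.2 CPM after low trypsin, against 1.90, 0.946 and 2.76 CPM in control. Rpl31-ps13 rose after 30 min, with 19.3, 17.5 and 21.7 CPM against 12.6, 10.4 and 6.91 CPM in control (edgeR adjusted p = 0.03).

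Nuclear copies of mitochondrial genes held some of the highest counts. Of the 10, 7 were higher after low trypsin and 7 after 30 s trypsin, with median log2 fold changes of 1.65 and 1.47, and 1 was higher and 2 lower after cold-active protease. The copies on chromosome 1, at 99.7% to 100% identity to their parents, have almost no base of their own. Those on chromosome 2, at 95.9% to 97.6%, have at least 61.1% of their windows free of an exact match, and they overlap Myo3a on the other strand.

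On chromosome 2, Gm13341, a copy of the cytochrome c oxidase gene mt-Co2, had 397, 411 and 364 CPM after 30 s and 513, 539 and 464 CPM after low trypsin, against 165, 139 and 110 CPM in control. Its log2 fold change was 1.47 ± 0.08 and 1.88 ± 0.08 (SE, edgeR adjusted p = 7.8e-20 and 2.4e-24). The parent mt-Co2 rose too, with 317, 305 and 341 CPM after 30 s and 418, 427 and 425 CPM after low trypsin, against 173, 141 and 155 CPM in control. Gm13339, a copy of mt-Nd2 of complex I, had 417, 402 and 339 CPM after 30 s, 264, 260 and 229 CPM after 3 min and 336, 406 and 341 CPM after low trypsin, against 176, 128 and 103 CPM in control. Its parent was not called in any of these comparisons, and the log2 fold changes of Gm13339 were 1.49 ± 0.11, 0.86 ± 0.11 and 1.42 ± 0.11.

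Gm13340, the copy of mt-Co1 on chromosome 2, was the pseudogene with the largest rise after cold-active protease. It had 514, 463 and 497 CPM after cold-active protease and 200, 215 and 198 CPM after 30 min trypsin, against 16.4, 5.68 and 11.0 CPM in control. It stood at 37.6, 46.9 and 54.8 CPM after 30 s, 9.61, 23.1 and 10.7 CPM after 3 min and 15.6, 29.1 and 39.4 CPM after low trypsin. The log2 fold change was 5.52 ± 0.16 after cold-active protease and 4.23 ± 0.18 after 30 min (SE, edgeR adjusted p = 1.5e-32 and 9.1e-25), and its p over the 6 groups was the smallest of all 159. The copy on chromosome 1, Gm29216, went the other way, with 35.9, 42.7 and 35.5 CPM after cold-active protease, against 155, 128 and 136 CPM in control, a log2 fold change of −1.86 ± 0.25 (SE, edgeR adjusted p = 2.1e-06). The parent mt-Co1 had 549, 539 and 478 CPM after cold-active protease, against 475, 432 and 510 CPM in control, and was not called. The sum of mt-Co1 and both copies changed by 0.75 after cold-active protease (edgeR adjusted p = 3.57e-10) and by 0.12 after 30 min (edgeR adjusted p = 0.48).

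On chromosome 1, Gm28437, identical to mt-Co3, had 1437, 1555 and 1344 CPM after low trypsin and 743, 743 and 885 CPM after 30 s, against 319, 173 and 186 CPM in control. Its log2 fold change was 2.69 ± 0.14 and 1.78 ± 0.15 (SE, edgeR adjusted p = 6.2e-21 and 3.0e-14), and its share of the counts of the pair with mt-Co3 was 80.9 ± 1.96% after low trypsin and 73.7 ± 0.64% after 30 s, against 50.1 ± 6.94% in control (SD, n = 3 each). Gm10925 and Gm28661 were also higher after low trypsin, by 2.32 ± 0.30 and 2.02 ± 0.35 (SE), and kept that call without any single library (largest edgeR adjusted p 2.65e-05 and 0.0139). Both varied strongly within groups. Gm10925, identical to mt-Atp6 of ATP synthase, had 210, 244 and 699 CPM after 30 s and 34.8, 241 and 48.4 CPM after 30 min, against 179, 68.1 and 123 CPM in control. Its log2 fold change after 30 s was 1.60 ± 0.31 (SE, edgeR adjusted p = 0.000198), and 0.86 ± 0.29 without replicate 3 of that group (edgeR adjusted p = 0.071). Gm28661, identical to mt-Co2, had 67.8, 71.8 and 211 CPM after 30 s, against 63.2, 19.4 and 42.4 CPM in control, and its call at 1.46 ± 0.36 was lost without replicate 3, at 0.74 ± 0.36 (edgeR adjusted p = 0.325), and without replicate 2 of control (edgeR adjusted p = 0.0923). Gm28438, a copy of mt-Nd3, was at −1.47 ± 0.38 after 30 min and −1.67 ± 0.37 after cold-active protease (SE, edgeR adjusted p = 0.013 in both), and at 0.91 ± 0.27 after 30 s, or 0.38 ± 0.28 without replicate 3 (edgeR adjusted p = 0.616). These calls of Gm28438 were also lost without replicate 1 or 2 of control at 30 s, without replicate 3 of control or replicate 1 or 2 of the group at 30 min, and without replicate 3 of control or replicate 2 or 3 of the group after cold-active protease. It and Gm28661 were picked out after their values were seen. Summed over the 6 copies on chromosome 1, replicate 3 of 30 s trypsin had 2018 CPM against 1126 and 1171 CPM in its other libraries, replicate 2 of 30 min trypsin 795 CPM against 274 and 295 CPM, and replicate 2 of 3 min trypsin 815 CPM against 445 and 479 CPM. Without replicate 3 of 30 s trypsin the calls after 30 s numbered 51, without replicate 2 of 30 min trypsin those after 30 min numbered 23, and without replicate 2 of 3 min trypsin those after 3 min numbered 16.

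**Figure D4:**
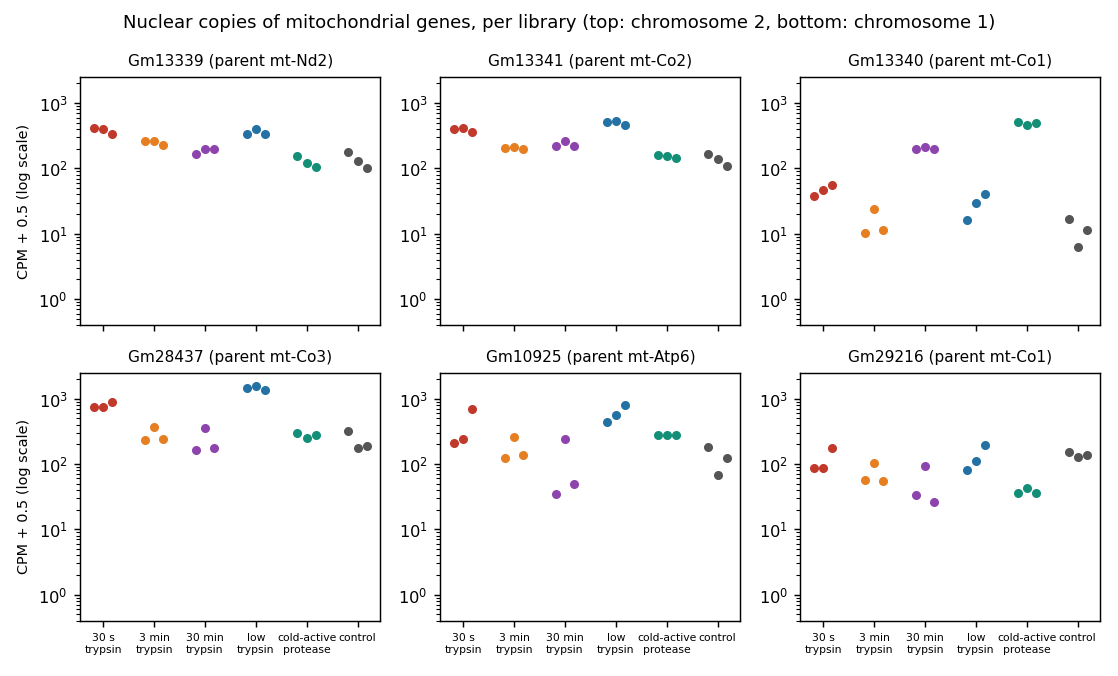
CPM plus 0.5 on a log scale in each of 18 libraries (3 points a group) for 6 nuclear copies of mitochondrial genes, those of chromosome 2 in the upper row and of chromosome 1 in the lower. Gm13340 stands at 463 to 514 CPM after cold-active protease against 5.68 to 16.4 CPM in control, while Gm10925 and Gm29216 scatter within groups.

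The members without a ribosomal or mitochondrial-genome parent, 9 of them with no parent found, also included many that rose after 30 s. Of 42 tested, 12 were higher (28.6%) and 2 lower after 30 s, 6 were higher and 2 lower after low trypsin, and the median log2 fold change was 0.09 and 0.15. Both copies of the glycolytic gene Gapdh rose after 30 s. Gm5069 had 24.1, 18.2 and 14.1 CPM after 30 s, 5.41, 4.50 and 6.04 CPM after 3 min and 6.84, 4.78 and 8.07 CPM after 30 min, against 0.632, 0.946 and 0.921 CPM in control, a log2 fold change of 4.33 ± 0.46 after 30 s (SE, edgeR adjusted p = 2.1e-10). Gm7336 had 43.8, 43.7 and 44.0 CPM after 30 s and 41.1, 27.5 and 38.5 CPM after low trypsin, against 10.1, 10.9 and 16.1 CPM in control. Gapdh itself had only 97 counts over all 18 libraries, beside 867 for Gm7336, which has no window that sets it apart from other transcripts.

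Gm4950 and Gm15796 had their counts almost wholly in the 30 s libraries, and both had met the level rule there alone. Gm4950, a copy of the proteasome gene Psmb3, had 13.6, 16.1 and 17.9 CPM after 30 s, against 1.26, 0.473 and 0.921 CPM in control, and Psmb3 fell slightly, by 0.24 ± 0.07. Gm15796, a copy of the elongation factor gene Eef1a1 picked out after its values were seen, had 7.44, 9.89 and 12.5 CPM after 30 s, against 0.632, 0.473 and 0.460 CPM in control. Its 59 counts after 30 s against 3 in control are a ratio of 19.1, with an exact 95% counting interval of 6.22 to 95.2.

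Gstp-ps, a copy of a gene for glutathione S-transferase pi, was lower than control in all 5 comparisons. It had 30.6, 31.2 and 37.5 CPM after 30 s, 56.5, 44.4 and 52.3 CPM after 3 min, 25.5, 27.1 and 24.2 CPM after 30 min, 40.6, 45.5 and 57.5 CPM after low trypsin and 41.9, 49.2 and 39.4 CPM after cold-active protease, against 69.5, 71.9 and 60.3 CPM in control. The libraries of each treatment lay below all control libraries. Its log2 fold change was −1.08 ± 0.14 after 30 s, −0.46 ± 0.14 after 3 min, −1.41 ± 0.16 after 30 min, −0.49 ± 0.13 after low trypsin and −0.62 ± 0.13 after cold-active protease, with edgeR adjusted p of 7.4e-08, 0.045, 1.2e-09, 0.015 and 0.008. Its closest parent, Gstp2, had 7 counts over all libraries.

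Cd63-ps, a copy of the gene for a tetraspanin of endosomes, had 28.9, 23.4 and 35.3 CPM after 30 s and 23.0, 19.6 and 17.4 CPM after 30 min, against 13.9, 7.57 and 7.83 CPM in control, while Cd63 was called lower after low trypsin, by 0.14 ± 0.04, and in no other comparison with control.

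Some pseudogenes with no exact 45-base match in another annotated transcript were called as well. Matches with a few differing bases were not sought, so these pseudogenes can still resemble their parent closely. Of 13 tested with every window free of an exact match, 2 were higher after 30 s, or 15.4% beside 3.24% of all genes tested. After low trypsin 4 were higher, or 30.8% beside 3.3%, and 1 was lower. A difference among the 6 groups was called for 5, or 38.5% beside 11.5%. Gm14513, a 95.1% identical fragment of Rps3 on chromosome X, had 447, 410 and 452 CPM after 30 min, against 335, 339 and 355 CPM in control, a log2 fold change of 0.31 ± 0.07 (SE, edgeR adjusted p = 0.0014), and was called in no other comparison with control. 2810025M15Rik, distantly related to Rpl37a, had 93.9 to 125 CPM over the 5 treatments, against 118, 105 and 102 CPM in control. Zfp862-ps, for which no parent was found, had 29.4 to 44.7 CPM over the treatments, against 37.9, 36.9 and 35.0 CPM in control. Hyi, a putative hydroxypyruvate isomerase annotated as a polymorphic pseudogene, had 13.2 to 27.3 CPM, against 22.7, 20.3 and 18 CPM in control. C920009B18Rik, related to the immune ligand gene H60b, had 4.89 to 16.9 CPM, against 8.84, 8.51 and 8.29 CPM in control. None of the last 4 was called against control, and none of the 7 tested pseudogenes without a parent was called either.

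After 30 s and after low trypsin, the median change was largest for copies identical to their parent. After 30 s, 11 of the 16 copies identical to their parent were higher and none lower, with a median log2 fold change of 1.06. Of 38 at 99% to under 100% identity, 14 were higher and 2 lower, with a median of 0.63. Of 63 at 95% to under 99%, 15 were higher and 7 lower, with a median of 0.24, and of 35 under 95%, 9 were higher and 1 lower, with a median of 0.45. After low trypsin the medians over the same classes were 1.08, 0.93, 0.77 and 0.50, and 11, 17, 19 and 13 copies were higher. These are descriptions, since copies of a family share a parent. After 3 min the medians were 0.14, −0.10, −0.15 and −0.05, and after cold-active protease they lay between −0.13 and 0.04.

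Where a pseudogene and its parent were called in opposite directions against control, the pseudogene was the higher one. Of 145 pairs in which both genes were tested, 27 had a higher copy with a lower parent after 30 s, 10 had both higher and 8 both lower, and none had a lower copy with a higher parent. After low trypsin 26 had a higher copy with a lower parent, 8 had both higher, 2 both lower and none the reverse. Most pairs did not have both genes called. After 30 s the parent alone was called in 66 pairs, the copy alone in 10 and neither in 24. After low trypsin these numbers were 38, 26 and 45. Few parents could enter the reverse class, as 4 of 60 ribosomal parents were higher in each comparison. Of 7 mitochondrial parents 5 were higher in each. A parent with several copies enters a pair with each. After 30 min there were 7 pairs with a higher copy and a lower parent, and after 3 min 3. After cold-active protease no pair had both genes called. In most pairs the copy held few of the counts. Over 154 pairs its share of the pair's counts had a median of 2.07%, was under 1% in 46 pairs and over 50% in 14. Those 14 included Gm15920, a copy of the complex I gene Ndufa12, with 81.6%, and Gm28437 with 67.8%. Gm15920 fell by 0.45 ± 0.11 after 30 s, when Ndufa12 fell by 0.68 ± 0.19.

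**Figure D5:**
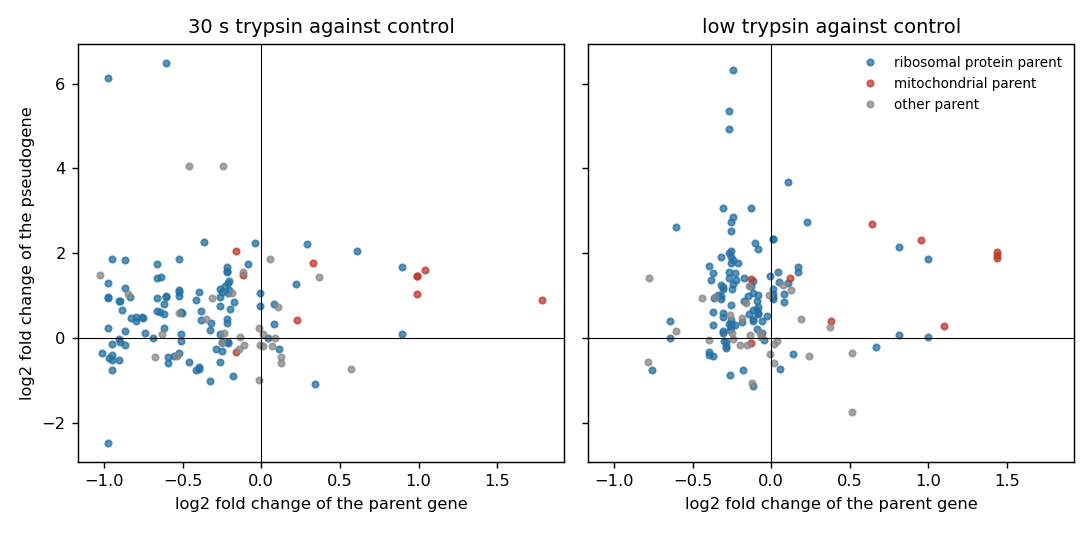
Log2 fold change of each pseudogene (vertical axis) against that of its parent gene (horizontal axis), after 30 s trypsin (left) and low trypsin (right), each against control; points are pairs in which both were tested, coloured by the kind of parent. The upper left area, higher copy and lower parent, holds 27 called pairs after 30 s and 26 after low trypsin, and the lower right area holds no called pair.

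Between treatments, the pseudogenes were lower after 3 min than after 30 s, and higher when trypsin had been taken off at once. After 3 min, 2 were higher and 38 lower than after 30 s, 25.2% of the 159 beside 1.94% of all genes tested (0.476% higher and 1.46% lower), with a median log2 fold change of −0.59. After low trypsin, 69 were higher and none lower than after 3 min with the enzyme left on, 43.4% beside 4.36% (3.78% higher and 0.576% lower), with a median of 0.87. After 30 min, 20 were higher and 4 lower than after 3 min, 15.1% beside 4.03% (2.83% higher and 1.2% lower), and these 24 calls fell to 14 without replicate 1 or 2 of 3 min. After cold-active protease, 9 were higher and 4 lower than after 3 min trypsin, 8.18% beside 3.7% (2.84% higher and 0.864% lower), and the median was 0. In the comparison of low trypsin with 3 min, 49 of 145 pairs had both copy and parent higher and 3 had a higher copy and a lower parent. The 3 min libraries enter each of these 4 comparisons. The 159 include pseudogenes that passed the level rule through 30 s or low trypsin libraries alone. Part of the calls between those groups and 3 min was therefore set by the choice of members.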

How the data were processed

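The deposited count matrix holds raw counts per gene, 1 column per library, made from BRB-seq with 15 cycles of read 1 and 45 of read 2, per the labels. Per the submitters' processing notes the build was GRCm38, and the tools named were HISAT2 2.1.0, UMI-tools 1.0.1, featureCounts 2.0.1, DESeq2 1.28.1, cutadapt 2.6 and Trim Galore 0.6.6, with no role given. Their settings, the strand option and the handling of reads with several matches are not given in the sources used here. A deposited matrix of normalized counts, a signal the authors obtained by dividing counts by 1 size factor per library (0.797 to 1.30), was only checked against the counts. The deposited matrix labelled TPM holds CPM with no length correction, and all 467226 values equalled count over column total within 1e-06.

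From the counts, expressed pseudogenes were selected as described above, with the 164 members and the lists chosen with earlier results of these data known. Parents were sought with blastn 2.17.0 among protein-coding, mitochondrial rRNA and tRNA transcripts of GENCODE M21, at 75% identity and 40% cover or more, and 45-base windows were compared by exact match. Python 3.11.15 with pandas 2.3.3 and Biopython 1.88 was used.

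Differences were tested with edgeR 4.0.16 in R 4.3.3 (limma 3.58.1 installed) by the quasi-likelihood F test on the 18 libraries together, with TMM scaling, on 10075 genes that passed the filterByExpr filter on low counts, of which 159 were members. The 5 untested members were D130007C19Rik, D630033A02Rik, Gm10012, Gm15710 and Gm15760. P-values were adjusted over all tested genes by Benjamini-Hochberg, with a threshold of 0.05. The code was tested on simulated data. Total counts of 1490869 to 2480690 per library limit the precision of low values, and intervals and floors cover counting error only. Alternatives were DESeq2 1.42.0, other scalings and filters, single libraries left out, sums with the parent, other level rules and a lot block.

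Named were the 10 pseudogenes with the highest mean CPM and, per comparison, the largest called rises and falls (up to 4 each against control, up to 2 each between treatments) among pseudogenes whose higher group averaged 10 CPM or more and whose libraries did not overlap. Also named were the 3 with the smallest p over 6 groups, the parents, the 3 nearest each side of the threshold and the 5 with the most distinct windows. Others named were chosen after their values were seen: Rpl10a-ps3, Rps12-ps9, Rps23-ps2, Gm14633, Gm8292, Gm15796, Gm7336, Gm15920, Gm28661 and Gm28438. Results that need certain withheld genes are not reported here.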

Additional observations from a re-analysis of the deposited data

Results flagged for a closer look

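The following pseudogenes stood out for a difference between treatments, by edgeR adjusted p. Values of Rpl10a-ps2, Gm4950, Gm7429 and Rpsa-ps2 are descriptions with no p, because these met the level rule through a single group of the comparison. Between 3 min and 30 s trypsin, the log2 fold change was −5.53 for Rpl10a-ps2 (2 counts against 132, a ratio of 0.019 with an exact 95% counting interval of 0.002 to 0.068), −4.18 for Gm4950, 0.62 for Gstp-ps (adjusted p = 0.014) and 0.41 for Gm8420 (adjusted p = 0.00639). Between 30 min and 3 min trypsin it was 5.46 for Rps12-ps2 (adjusted p = 1.49e-14), 3.82 for Gm13340 (adjusted p = 7.16e-23), −0.96 for Gstp-ps (adjusted p = 4.16e-05) and −0.89 for Gm8130 (adjusted p = 0.00197). Between low trypsin and 3 min trypsin it was 5.49 for Gm7429 (71 counts against 1, a ratio of 57.5 with an exact 95% counting interval of 9.99 to 2302) and 4.81 for Rpsa-ps2. Between cold-active protease and 3 min trypsin it was 5.10 for Gm13340 (adjusted p = 2.34e-31), 1.30 for Gm7331 (adjusted p = 0.0114), −0.92 for Gm13339 (adjusted p = 6.64e-09) and −0.69 for Rps2-ps10 (adjusted p = 0.00121).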

How the results depend on the processing

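Summing each pseudogene with its parent and the parent's other pseudogenes gave 109 calls after 30 s, 93 after 3 min, 64 after 30 min and 14 after cold-active protease, and 90 for 30 min and 81 for cold-active protease against 3 min. With 50% or more of the windows unmatched, 73 remained and the calls were 26 after 30 s, 8 after 3 min, 11 after 30 min, 24 after low trypsin, 2 after cold-active protease, 15 for 3 min against 30 s, 11 for 30 min against 3 min, 29 for low trypsin against 3 min and 40 over the 6 groups, since fewer members were tested. DESeq2 called 11 after 3 min, 18 after 30 min, 1 after cold-active protease and 15 for 30 min against 3 min. Other scalings, filters and the fit on 2 groups kept every count within 1.5 times.

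Leaving out single libraries gave between 45 and 55 calls for 30 s trypsin, between 10 and 16 for 3 min, between 19 and 28 for 30 min, between 52 and 66 for low trypsin and between 3 and 8 for cold-active protease. It gave between 30 and 34 for 3 min against 30 s and between 86 and 94 over the 6 groups. Against 3 min, 30 min had between 14 and 23 calls, low trypsin between 53 and 62 and cold-active protease between 10 and 14. After 3 min, the count was 10 without replicate 1 of that group and 13 without its replicate 3 or control replicate 3. After cold-active protease, it was 8 without control replicate 1 and 3 without control replicate 2 or 3 or replicate 1 of the treatment. For 30 min against 3 min it was 14 without replicate 1 or 2 of 3 min.

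Under the sum with the family the sign turned for Gm4950 after 30 s (−0.16), for Gm15501 (−0.30), Cd63-ps (−0.10) and Gm10275 (−0.28) after 3 min, for Rps12-ps2 (−0.022), Cd63-ps (−0.081) and Gm29216 (0.12) after 30 min, for Rpsa-ps2 (−0.16), Gm10154 (−0.16) and Gm49138 (−0.12) after low trypsin and for Gm29216 after cold-active protease (0.75). It also turned for Gm4950 (0.044, 3 min against 30 s), Gm8130 (0.085, 30 min against 3 min), Rpsa-ps2 (−0.058, low trypsin against 3 min) and Rps2-ps10 (0.002, cold-active protease against 3 min). The cause was not tested. Of 705 alternative values of 51 named results, 610 kept direction and side of the threshold and 80 kept the direction alone.

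With the replicate block the counts were 58, 15, 29, 66 and 6 against control in the order 30 s, 3 min, 30 min, low trypsin and cold-active protease, then 38 for 3 min against 30 s, 23, 67 and 13 for 30 min, low trypsin and cold-active protease against 3 min, and 92 over the 6 groups. Lot numbers showed no clear pairing of the libraries. Correlations of same-numbered deviations ran from −0.0605 to 0.0706, and those of differently numbered deviations from −0.0603 to 0.0767. Of 18 libraries, 9 were closest to their own number. Counting scatter weakens such correlations at these library totals, so the check cannot exclude a pairing. Requiring 2 CPM, 10 CPM or a mean of 5 CPM gave 346, 101 or 109 pseudogenes in place of 164.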
